A study of Mus musculus with 6 samples.

Results

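The D cyclins, their partner kinases, the CDK inhibitors that oppose them and the p53 axis were read as 10 genes of the deposited table, Ccnd1, Ccnd2, Ccnd3, Cdk4, Cdk6, Cdkn1a, Cdkn2a, Cdkn2b, Trp53 and Mdm2. They were chosen by symbol, as the rows whose Ensembl identifier carries one of these mouse gene names, and all 10 were found among the 54532 genes of the table. All 10 passed the expression filter used for testing, a mean of at least 0.5 FPKM over the 6 samples, which 15820 genes passed. FPKM counts the sequenced fragments of a gene per kilobase of transcript, scaled to the depth of the sample.

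Cells enter the division cycle when a D cyclin binds CDK4 or CDK6 and the complex phosphorylates the retinoblastoma protein, which then releases E2F factors to switch on genes of DNA synthesis. The INK4 proteins, encoded by Cdkn2a and Cdkn2b, bind CDK4 and CDK6 and block this step, and p21, encoded by Cdkn1a, inhibits cyclin-CDK complexes as a target of p53. Mdm2 is both a p53 target and the ligase that marks p53 for degradation, and the Arf protein of Cdkn2a holds Mdm2 back. In melanoma, the BRAF pathway drives Ccnd1, and loss of CDKN2A is a well-known event.

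Bulk RNA was sequenced from whole tumors of a mouse melanoma line with activated BRAF, which both groups share. Tumors are labelled by what their cells carried, a non-targeted control (NTC, 3 tumors) or an active Gli2 (Gli2CA, 3 tumors). The cells were kept under puromycin and implanted, 1000000 at a time, into C57Bl/6 mice, with harvest at day 28. Mouse age, the promoter of the Gli2 construct and any cloning of the lines were not given in the sources used here. Separate mice behind the samples are not stated either, and p-values therefore speak only of how these 6 samples vary, some of which may be technical.

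Fragment totals computed back from the FPKM steps ran from 16225486 to 22274096 per tumor. Gli2, the gene named in the labels, went against them, with 8.88, 11.1 and 7.96 FPKM in the NTC tumors but 3.22, 5.82 and 1.61 FPKM in those labelled Gli2CA (adjusted p = 0.0853 in limma). Whether reads of the construct count toward this mouse gene is unknown here, which limits Gli2 as a check, and every direction is that of the tumors labelled Gli2CA. Of 8 melanocyte markers, Sox10 stood at 51.5 to 177 FPKM and Mitf at 6.08 to 10.4 FPKM, while the pigment genes were near or at 0, with Tyrp1 at 0 in all 6 tumors, Tyr at up to 0.0639 FPKM and Dct at up to 0.0914 FPKM. The summed FPKM of 7 fibroblast markers, all tested, was 9799 to 31747 in NTC and 5179 to 8488 in the tumors labelled Gli2CA, and that of 5 endothelial markers, all tested, 82.6 to 138 and 57.4 to 67.1. Sums of 5 pan-leukocyte markers (1224 to 1891 and 931 to 1205) were also apart, though 2 of the 5 estimates were positive and 3 negative. Sums of 5 neutrophil markers were apart in the other direction (12.8 to 38.9 and 40.5 to 45.3), with 3 positive estimates and 2 negative ones, among them Csf3r, lower in every tumor labelled Gli2CA. Sums of 6 T cell markers (207 to 373 and 123 to 274) and 6 macrophage markers (1829 to 2661 and 1516 to 2833) overlapped. Most single markers of these 2 lists had negative estimates all the same. Of the T cell markers, 5 were lower in every tumor labelled Gli2CA, a pattern held by 17.9% of all tested genes. The other 1, Cd3d, had a positive estimate, and the median log2 fold change of the list was -0.76. Of the macrophage markers, 3 were lower in every such tumor, beside the same 17.9%, with 5 negative estimates and 1 positive one (median -0.59). The melanocyte list, with 4 of its 8 genes tested, summed to 101 to 192 and 61.6 to 108. All 4 had negative estimates (median -0.53). Mitf and Kit were lower in every tumor labelled Gli2CA, beside the same 17.9%, while Sox10 and Pmel overlapped. The 6 keratinocyte markers, of which 2 were tested, summed to 4.08 to 6.13 and 23.3 to 36.7. Nearly all of this sum was Krt14 and Krt10, as Krt5, Krt1, Trp63 and Dsp reached no more than 0.158 FPKM. Sums of 5 skeletal muscle markers (2.25 to 1088 and 13.6 to 772) and 5 adipocyte markers (11.3 to 111 and 35.2 to 138) overlapped. In none of these lists but that of melanocytes was a marker at 0 in all 6 tumors. The part that such differences in cell makeup play in the values of the 10 genes was not tested, and in whole tumors fewer cells of a type and less RNA per cell cannot be told apart.

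None of the 10 genes passed the threshold between the groups. With limma on log2(FPKM + 0.5), 0 of the 10 had a Benjamini-Hochberg adjusted p under 0.05, where 0.348% of all tested genes did (55 genes, 42 higher and 13 lower). By the unadjusted p, 6 of the 10 were under 0.05, where 27.5% of all tested genes were, and limma-voom on fragments computed back from FPKM also called 0 of the 10. In 6 of the 10 genes the groups did not overlap, against 33.8% of all tested genes. Among these 6, Cdk4 and Mdm2 were higher in every tumor labelled Gli2CA, a pattern held by 15.9% of tested genes, and Ccnd2, Ccnd3, Cdk6 and Cdkn2a were lower in every such tumor, a pattern held by 17.9%. Estimates were negative for 8 of the 10 genes, where the median of all tested genes was -0.04 on the log2 scale.

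**Figure D1:**
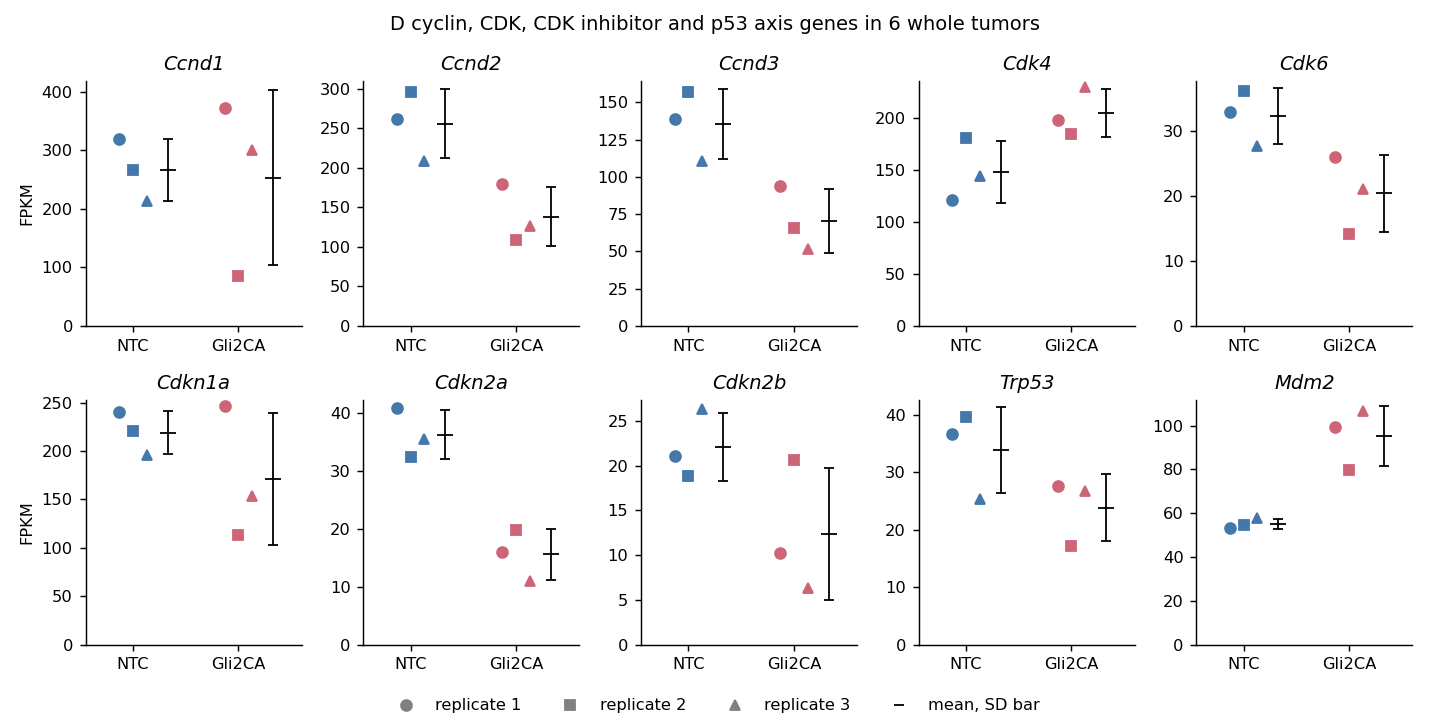
FPKM (vertical axes, each from 0) of the 10 genes in the 3 NTC tumors (blue) and the 3 tumors labelled Gli2CA (red), with marker shape giving the replicate number and the black dash and bar giving the mean and SD of each group. The groups are apart in Ccnd2, Ccnd3, Cdk4, Cdk6, Cdkn2a and Mdm2 and overlap in Ccnd1, Cdkn1a, Cdkn2b and Trp53, and Ccnd1 in the tumors labelled Gli2CA spans 85.9 to 373 FPKM.

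Ccnd1 encodes cyclin D1, the D cyclin most tied to BRAF signalling (ENSMUSG00000070348, chromosome 7, 144929931 to 144939925, minus strand; positions of genes are from GENCODE M21 on GRCm38). The NTC tumors, in replicate order, had 319, 267 and 214 FPKM, and the tumors labelled Gli2CA 373, 85.9 and 300.4 FPKM. Gli2CA replicate 2 was the lowest of the 6 tumors and Gli2CA replicate 1 the highest, so the groups overlapped. The estimate, a log2 fold change, was -0.30 (SE 0.50, 3 tumors per group, 95% interval -1.43 to 0.82, adjusted p = 0.716 in limma), and without Gli2CA replicate 2 the estimate turned to 0.35 (adjusted p = 0.383), while it was -0.71 without Gli2CA replicate 1, -0.55 without Gli2CA replicate 3 and -0.17 without NTC replicate 1. With sample weights from limma, which count a tumor that departs from its group for less, it was 0.15.

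Cyclin D2 and cyclin D3 had a different layout, with both groups apart. Ccnd2 (ENSMUSG00000000184, chromosome 6, 127125162 to 127152193, minus strand), whose protein is prominent in B cells and some neural cells, measured 262, 296 and 209 FPKM in NTC against 179.9, 109 and 126 FPKM under the Gli2CA label. Every tumor labelled Gli2CA lay below every NTC tumor, with group means of 256 ± 43.9 and 138 ± 37.1 FPKM (SD, n = 3 per group). The log2 fold change was -0.90, with an SE of 0.26 and an adjusted p of 0.0922. Ccnd3 (ENSMUSG00000034165, chromosome 17, 47505051 to 47599691, plus strand), whose protein is the D cyclin most used by blood cells, measured 138, 157 and 111 FPKM against 94.0, 65.4 and 51.7 FPKM. These groups were also apart, with means of 135 ± 23.4 and 70.4 ± 21.6 FPKM (SD, n = 3 per group), a log2 fold change of -0.97 (SE 0.27) and an adjusted p of 0.0885. Both differences were larger than the SD within a group, and both missed the threshold. Of the 5 pan-leukocyte markers, Coro1a and Laptm5 were lower in every tumor labelled Gli2CA, a pattern held by 17.9% of all tested genes. Ptprc, Cd52 and Cd53 overlapped, and the median log2 fold change over the list was -0.01. The median was -0.76 over the 6 T cell markers, -0.59 over the 6 macrophage markers and 1.17 over the 5 neutrophil markers. The part of blood cells in the values of Ccnd2 and Ccnd3 was not tested.

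The 3 D cyclin genes together summed to 719.7, 719.9 and 534 FPKM in NTC and to 647, 260.0 and 478 FPKM in the tumors labelled Gli2CA. The group means of the sum, 658 ± 107 and 462 ± 194 FPKM (SD, n = 3 per group), did not separate in an exact two-sided permutation test (p = 0.2, where 0.1 is the smallest p that 3 against 3 allows). Ccnd1 made up 44.3%, 37.0% and 40.1% of this sum in the NTC tumors and 57.7%, 33.04% and 62.8% in Gli2CA replicates 1 to 3. Its share was thus highest in Gli2CA replicates 1 and 3 and lowest in Gli2CA replicate 2. These shares compare genes per length, with a mean over annotated transcripts as length, and so depend on which transcripts are present.

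Among the partner kinases the estimates had opposite signs. Cdk4 (ENSMUSG00000006728, chromosome 10, 127063534 to 127067920, plus strand) is the kinase most tied to cyclin D1, and its FPKM values were 121, 180.3 and 144 in NTC against 198, 185 and 229.8 under the Gli2CA label. The gap between the groups was narrow, 180.3 FPKM in NTC replicate 2 against 185 FPKM in Gli2CA replicate 2, and the log2 fold change was 0.47 (SE 0.24, 95% interval -0.06 to 1.01, adjusted p = 0.22). Cdk6 (ENSMUSG00000040274, chromosome 5, 3341485 to 3531008, plus strand), the close relative of Cdk4 known for its role in blood cells, had FPKM values of 32.98, 36.2 and 27.7 in NTC against 26.1, 14.1 and 21.1. Its groups were also apart by little, with an estimate of -0.68 (SE 0.26, adjusted p = 0.144) that came to -0.39 with the trend of gene length in each library removed and to -0.44 without Gli2CA replicate 2. That of Cdk4 came to 0.27 with protein-coding genes alone rescaled.

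The end of Cdk4 overlaps the gene Tspan31 on the opposite strand over 641 bases. The strand setting of the authors' counting was not given in the sources used here, so reads from the shared stretch cannot be told apart. Tspan31, a tetraspanin gene, had an estimate of 0.18 (SE 0.23, adjusted p = 0.628), at 94.3 to 134 FPKM in NTC and 109 to 149 FPKM in the tumors labelled Gli2CA. Ccnd1 and Ccnd3 overlap the opposite-strand genes LTO1 and Bysl, which lay at 11.3 to 17.4 FPKM and 3.37 to 7.73 FPKM, far below the cyclins.

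Cdk4 is a textbook target of Myc, which binds the E-box CACGTG, and its promoter window is shown for that reason. RefSeq start windows (GRCm38.p6, 250 bases before to 50 after a start) were found for 8 of the 10 genes, not for Ccnd1 and Ccnd2, and were searched on both strands for the E-box, for CRE (TGACGTCA), AP-1 (TGANTCA), Gli (GACCACCCA) and E2F (TTTCGCGC, TTTGGCGC and TTTCCCGC). The Cdk4 window held 4 E-boxes, in capitals, at positions -172, -118, -98 and -11 from the start. An E-box is present in 7.15% of the 32851 windows, and 8 windows (0.0244%) hold 4 or more.
Cdk4, chr10:127063285-127063584, plus strand: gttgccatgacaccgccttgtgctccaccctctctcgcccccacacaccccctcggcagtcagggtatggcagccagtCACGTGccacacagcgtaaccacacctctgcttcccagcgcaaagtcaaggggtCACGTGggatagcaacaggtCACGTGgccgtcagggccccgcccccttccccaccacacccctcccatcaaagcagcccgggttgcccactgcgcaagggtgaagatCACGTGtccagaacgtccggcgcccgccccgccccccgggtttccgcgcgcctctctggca
Single E-boxes lay in the windows of Cdk6 and Trp53, and no window of the 8 genes held the AP-1 or the Gli letters, which 7.81% and 0.253% of all windows hold. A match describes letters and says nothing of binding.

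Cdkn2a had the smallest p of the 10 genes and Cdkn2b, its neighbour, a similar estimate with overlapping groups. Cdkn2a (ENSMUSG00000044303, chromosome 4, 89274471 to 89294653, minus strand) encodes p16Ink4a and p19Arf from separate first exons. The NTC tumors had 40.8, 32.5 and 35.5 FPKM, from 794, 599 and 549 fragments. The tumors labelled Gli2CA had 16.0, 19.8 and 10.95 FPKM, from 275, 280 and 193 fragments. All NTC tumors lay above all tumors labelled Gli2CA, with means of 36.3 ± 4.24 and 15.6 ± 4.42 FPKM (SD, n = 3 per group), a ratio of 2.33. The log2 fold change was -1.23 (SE 0.26, 95% interval -1.81 to -0.64, adjusted p = 0.0658 in limma), short of the threshold.

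The FPKM of Cdkn2a cannot be divided between its products, because the table gives 1 value per gene and both transcripts share their second exon. The junctions from the first to the second exon show this, with the shared exon in capitals (GENCODE M21 transcripts, GRCm38, minus strand). The second exon runs over chromosome 4, 89276645 to 89276985, for both, and the first exons lie at 89294334 to 89294653 (Arf) and 89281986 to 89282192 (Ink4a).
Arf junction: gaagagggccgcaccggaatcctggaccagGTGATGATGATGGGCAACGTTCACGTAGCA
Ink4a junction: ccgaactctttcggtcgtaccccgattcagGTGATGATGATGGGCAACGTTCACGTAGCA
A fragment within the capitals belongs to either transcript.

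Cdkn2b (ENSMUSG00000073802, chromosome 4, 89306299 to 89311039, minus strand) encodes p15Ink4b, an INK4 inhibitor induced by TGF-beta. Its FPKM values were 21.1, 18.8 and 26.3 in NTC against 10.2, 20.6 and 6.31 under the Gli2CA label. Gli2CA replicate 2 lay within the NTC range and the other 2 below it, for a log2 fold change of -0.96 (SE 0.38, 95% interval -1.82 to -0.09, adjusted p = 0.153). It was -1.39 (adjusted p = 0.0679) without Gli2CA replicate 2 and -0.58 (adjusted p = 0.399) without Gli2CA replicate 3. Around this pair of genes, 5 other genes within 1000000 bases were tested and 0 were called, with a median log2 fold change of -0.02. Mtap, the enzyme gene that is often lost with CDKN2A in human tumors, had one of -0.40 (SE 0.21, adjusted p = 0.244).

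The start windows of both genes are shown because their inhibitors are read from separate promoters within a short stretch of chromosome 4, all on the minus strand. The Arf start held 1 E2F match, in capitals, at position -99 from the start (1.84% of all windows hold one), and the Cdkn2b start held 1 CRE match, in capitals, at position -46 (1.79% of all windows).
Cdkn2a, Arf start, chr4:89294570-89294869: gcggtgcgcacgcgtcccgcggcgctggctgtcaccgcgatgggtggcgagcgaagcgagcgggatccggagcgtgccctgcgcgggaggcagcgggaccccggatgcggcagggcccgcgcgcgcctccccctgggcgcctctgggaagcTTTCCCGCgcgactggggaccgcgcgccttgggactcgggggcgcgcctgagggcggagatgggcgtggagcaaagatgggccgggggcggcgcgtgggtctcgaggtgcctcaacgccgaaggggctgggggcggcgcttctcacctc
Cdkn2a, Ink4a start, chr4:89282143-89282442: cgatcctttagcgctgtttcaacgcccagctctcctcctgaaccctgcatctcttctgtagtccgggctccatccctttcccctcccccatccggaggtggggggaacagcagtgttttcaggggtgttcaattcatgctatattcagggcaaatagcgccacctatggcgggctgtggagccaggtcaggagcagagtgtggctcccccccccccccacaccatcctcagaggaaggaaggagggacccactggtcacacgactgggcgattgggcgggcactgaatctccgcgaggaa
Cdkn2b start, chr4:89310983-89311282: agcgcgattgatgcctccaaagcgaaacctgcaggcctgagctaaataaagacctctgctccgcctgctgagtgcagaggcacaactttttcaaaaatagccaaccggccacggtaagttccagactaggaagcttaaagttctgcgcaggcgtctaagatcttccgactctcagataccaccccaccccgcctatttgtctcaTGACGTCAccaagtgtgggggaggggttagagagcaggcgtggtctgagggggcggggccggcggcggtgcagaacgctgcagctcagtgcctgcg
The Ink4a start held none of the searched letters.

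The 3 tested genes whose profile over the 6 tumors was most like that of Cdkn2a were Fndc10, Nhsl2 and Jag2. Likeness was the root mean square difference of log2(FPKM + 0.5) values, each centred on its own mean over the 6 samples, and it came to 0.0905, 0.0985 and 0.115 among 15819 genes compared. Jag2, a Notch ligand gene, had FPKM values of 6.40, 5.24 and 4.55 in NTC against 2.21, 3.17 and 1.36. Jag2 was picked for this likeness, so sharing its lowest tumor (Gli2CA replicate 3) and highest (NTC replicate 1) with Cdkn2a is no separate result.

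Cdkn1a, the p21 gene (ENSMUSG00000023067, chromosome 17, 29090976 to 29100727, plus strand), overlapped between the groups. Its FPKM values were 240.5, 220.5 and 196 in NTC against 246, 113 and 153 under the Gli2CA label. Gli2CA replicate 1 was the highest of the 6 tumors and the other 2 were below all NTC tumors, for a log2 fold change of -0.43 (SE 0.30, 95% interval -1.11 to 0.25, adjusted p = 0.376). It was -0.72 without Gli2CA replicate 1 and -0.17 without Gli2CA replicate 2. The spread within the tumors labelled Gli2CA, an SD of 68.1 FPKM, exceeded the distance between the group means of 219 and 171 FPKM.

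Trp53 and Mdm2 had estimates of opposite sign. Trp53, the p53 gene (ENSMUSG00000059552, chromosome 11, 69580359 to 69591873, plus strand), had FPKM values of 36.7, 39.7 and 25.4 in NTC against 27.5, 17.1 and 26.8 under the Gli2CA label. NTC replicate 3 lay below Gli2CA replicates 1 and 3, so the groups overlapped, with a log2 fold change of -0.51 (SE 0.27, 95% interval -1.12 to 0.11, adjusted p = 0.254). Without Gli2CA replicate 2 it was -0.29. Mdm2 (ENSMUSG00000020184, chromosome 10, 117688875 to 117710758, minus strand) had FPKM values of 53.2, 54.6 and 57.6 in NTC against 99.4, 79.8 and 106.6 under the Gli2CA label. The NTC tumors were tightly grouped and every tumor labelled Gli2CA lay above them, with means of 55.2 ± 2.23 and 95.3 ± 13.9 FPKM (SD, n = 3 per group), a ratio of 1.73. The log2 fold change was 0.77 (SE 0.21, 95% interval 0.30 to 1.25, adjusted p = 0.0841 in limma), short of the threshold. Mdm2 and Cdk4, the only members with positive estimates, both lie on chromosome 10, and the tested genes within 1000000 bases had median log2 fold changes of 0.09 (15 genes, around Mdm2) and 0.17 (39 genes, around Cdk4), with 0 called. Around the other members the medians of such neighbours ran from -0.26 (42 genes, around Ccnd3) to 0.33 (14 genes, around Cdk6), again with 0 called. The neighbours of Cdk6 and those of Ccnd2 (median 0.10, 11 genes) thus had medians opposite in sign to the estimates of these members.

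**Figure D2:**
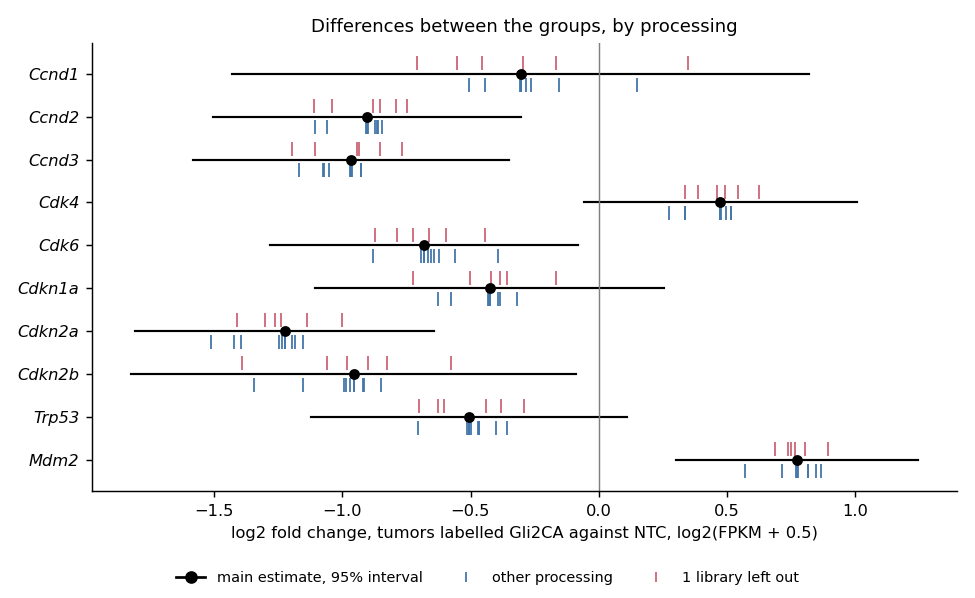
Log2 fold change of each gene between the groups (horizontal axis, on the log2(FPKM + 0.5) scale; positive is higher in the tumors labelled Gli2CA), with the limma estimate and its 95% interval in black, other processing as blue ticks and fits without 1 library as red ticks. Only Ccnd1 has ticks on both sides of 0, at 0.15 and 0.35 on the positive side, and those of Cdkn2a are negative throughout, reaching -1.51 with the length trend removed.

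A factor applied to a whole library leaves the ratio of 2 of its genes nearly as it was, and 4 such ratios, of FPKM + 0.5, were compared with exact two-sided permutation tests, in which 0.1 is the smallest p that 3 against 3 allows. The log2 ratio of Mdm2 to Trp53 was 0.53, 0.46 and 1.17 in NTC and 1.83, 2.19 and 1.97 in the tumors labelled Gli2CA. The groups were apart, with means of 0.72 ± 0.39 and 1.999 ± 0.18 (SD, n = 3 per group), a difference of 1.28 and an exact p of 0.1 (0.2 adjusted over the 4 ratios). Cdk6 to Cdk4 also reached the smallest possible p, at -1.86, -2.30 and -2.35 in NTC and -2.90, -3.66 and -3.41 in the tumors labelled Gli2CA, a difference of -1.16 (exact p = 0.1, adjusted 0.2) that came to -0.73 with the gene length trend removed. Ccnd1 to Ccnd2 overlapped between the groups, at 0.28, -0.15 and 0.03 against 1.05, -0.34 and 1.25 (exact p = 0.4, adjusted 0.5). Its difference of 0.60 was 1.09 without Gli2CA replicate 2, 0.40 without Gli2CA replicate 1 and 0.30 without Gli2CA replicate 3. Cdkn2a to Cdkn2b overlapped as well, with a difference of -0.27 (exact p = 0.5, adjusted 0.5). This difference was -0.02 without Gli2CA replicate 2, -0.16 without NTC replicate 1, -0.41 without NTC replicate 3, -0.42 without Gli2CA replicate 3 and -0.54 with the gene length trend removed.

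**Figure D3:**
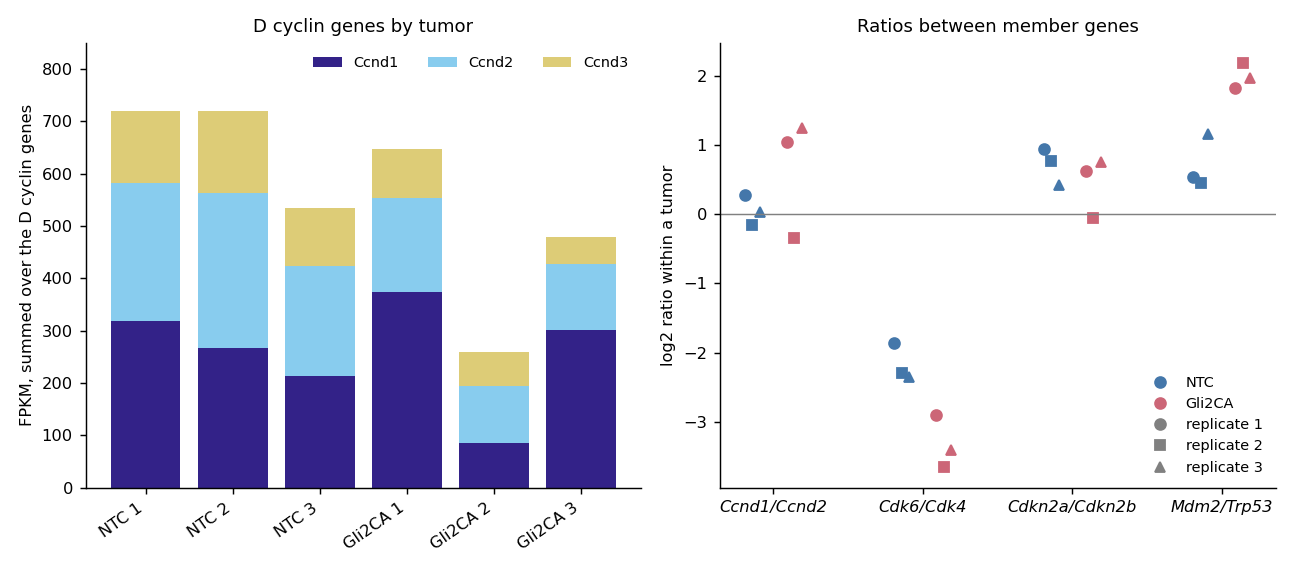
Left, FPKM of the D cyclin genes stacked for each of the 6 tumors (bars from 0). Right, log2 ratios between members within each tumor (NTC blue, Gli2CA red, marker shape by replicate number), in which Cdk6/Cdk4 and Mdm2/Trp53 are apart between the groups and Gli2CA replicate 2 lies away from the other 2 tumors of its group for Ccnd1/Ccnd2.

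Other genes of the same pathways were read from 6 lists, and 0 of their tested genes passed over all genes in limma. With protein-coding genes alone rescaled, limma called 1 gene each in the p53 target, p53 regulator and RB and E2F lists. These were Tnfrsf10b (adjusted p = 0.0471), Rpl5 (adjusted p = 0.0489) and Ccne2 (adjusted p = 0.0384). The same rescaling called 0 genes in the other lists, and 736 of all 13336 tested genes. Of 28 p53 target genes, all tested, 22 had negative and 6 positive estimates, with a median log2 fold change of -0.13 beside -0.04 for all tested genes. With the gene length trend of each library removed the signs were even, 14 positive and 14 negative. By the unadjusted p, 1 was higher and 3 were lower at 0.05, beside 27.5% of all tested genes in either direction. The 4 with the smallest p were Tnfrsf10b, a death receptor, with means of 4.09 ± 0.299 in NTC and 1.93 ± 0.307 FPKM (SD, n = 3 per group; adjusted p of 0.0815), Zmat3, an RNA-binding p53 target, at -0.85 on the log2 scale (SE 0.25), the DNA repair gene Xpc at -0.66 (SE 0.24) and the apoptosis gene Bax. Bax had FPKM values of 77.0, 117 and 113 in NTC against 141, 167 and 158, with an estimate of 0.62 (SE 0.24, adjusted p = 0.141) that came to 0.15 with the length trend removed. By the same removal Zmat3 came to -0.43 and Xpc to -0.39. The groups did not overlap in 6 of the 28 targets, beside 33.8% of all tested genes, and of these 6 only Bax was higher. The estimate of Mdm2 thus had the sign of Bax, and that of Cdkn1a the sign of most of the list.

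Of 19 p53 regulators and relatives, 17 were tested, 6 with positive and 11 with negative estimates (median -0.11). The ribosomal protein genes Rpl5 and Rpl11, whose free proteins bind Mdm2 and keep it from p53, had estimates of 1.63 (SE 0.41, adjusted p = 0.0745) and 0.89 (SE 0.32, adjusted p = 0.123), which came to 1.06 and 0.33 with quantile normalization. With the length trend removed, Rpl11 came to 0.41. Chek2, a kinase that activates p53 after DNA damage, stood at 0.69 (SE 0.24), and Huwe1, a ubiquitin ligase that also acts on p53, at -0.76 (SE 0.26), or -0.50 with the length trend removed.

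Downstream of the D cyclins, estimates were mostly positive. Of 18 genes of the RB and E2F group and the G1/S cyclins, all tested, 11 were positive, with a median of 0.49, and 6 were higher and 0 lower by the unadjusted p, beside 27.5% of all tested genes in either direction. Ccne2, the cyclin E2 gene and itself an E2F target, had FPKM values of 5.49, 10.5 and 8.81 in NTC against 21.2, 21.9 and 32.8. Its estimate was 1.58 (SE 0.29, adjusted p = 0.0541 in limma), short of the threshold. With protein-coding genes alone rescaled, Ccne2 passed (estimate 1.38, adjusted p = 0.0384 in limma). The E2F factor genes E2f5 and E2f8 stood at 1.07 (SE 0.24) and 1.04 (SE 0.30), and Cdk2, the kinase bound by cyclin E, at 0.62 (SE 0.24). Of 18 E2F targets of S phase, all tested, 15 had positive estimates and 3 negative ones, with a median of 0.34 and, beside the same 27.5%, 7 higher and 0 lower by the unadjusted p. With protein-coding genes alone rescaled, which moved the median of all tested genes to -0.29, 11 were positive and 7 negative. The same rescaling left 10 positive and 8 negative in the RB and E2F list, in which Rb1 and E2f1 to E2f4 overlapped between the groups. Among the S phase targets the groups did not overlap in 7 of 18, beside 33.8% of all tested genes. Mcm2 to Mcm7 all overlapped, with estimates from -0.26 to 0.31. Rrm2, a ribonucleotide reductase subunit, had means of 40.5 ± 11.1 in NTC and 94.5 ± 28.1 FPKM (SD, n = 3 per group) and an estimate of 1.21 (SE 0.30, adjusted p = 0.0741). The primase gene Prim1, the thymidylate synthase gene Tyms and the thymidine kinase gene Tk1 had log2 fold changes of 1.17 (SE 0.34), 1.07 (SE 0.32) and 1.03 (SE 0.32).

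Most CDK inhibitors outside the 10 genes differed in sign from Cdkn2a and Cdkn2b. Of 5 such genes, all tested, 4 had positive estimates, the exception being Cdkn1c, the p57 gene, at -0.60 (SE 0.51), and 0 were lower by the unadjusted p (3 were higher, beside 27.5% of all tested genes in either direction), with a median of 0.53. Cdkn2d, which encodes the INK4 protein p19Ink4d, had FPKM values of 15.8, 25.5 and 23.1 in NTC against 42.7, 30.2 and 52.6, with an estimate of 0.94 (SE 0.28, adjusted p = 0.0942). Cdkn2c, the p18Ink4c gene, had an estimate of 0.29 (SE 0.21), and Cdkn1b, the p27 gene, 0.53 (SE 0.21). These came to 0.09 and 0.33 with protein-coding genes alone rescaled, and Cdkn1b to 0.81 with the length trend removed. Cdkn3, a phosphatase of CDKs that peaks in dividing cells, had one of 1.43 (SE 0.34, adjusted p = 0.0708).

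Of 14 genes of D cyclin assembly and turnover, all tested, 10 had positive estimates (median 0.38), where 47.4% of all tested genes did. With protein-coding genes alone rescaled, 9 were positive and 5 negative (median 0.19). Cks1b, a small CDK-binding protein that helps degrade p27, had means of 53.6 ± 17.3 in NTC and 129 ± 34.1 FPKM (SD, n = 3 per group; adjusted p of 0.0733). Cdk7, the kinase that activates other CDKs, had an estimate of 0.80 (SE 0.24), and Rbx1, a subunit of cullin ubiquitin ligases, 0.82 (SE 0.28). Ambra1, the adaptor through which D cyclins are degraded, had one of -0.84 (SE 0.29, adjusted p = 0.114), with FPKM values of 10.3, 10.9 and 6.46 in NTC against 6.10, 4.85 and 3.71. With the length trend removed, Ambra1 came to -0.50 and Cks1b to 0.82, from 1.28.

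**Figure D4:**
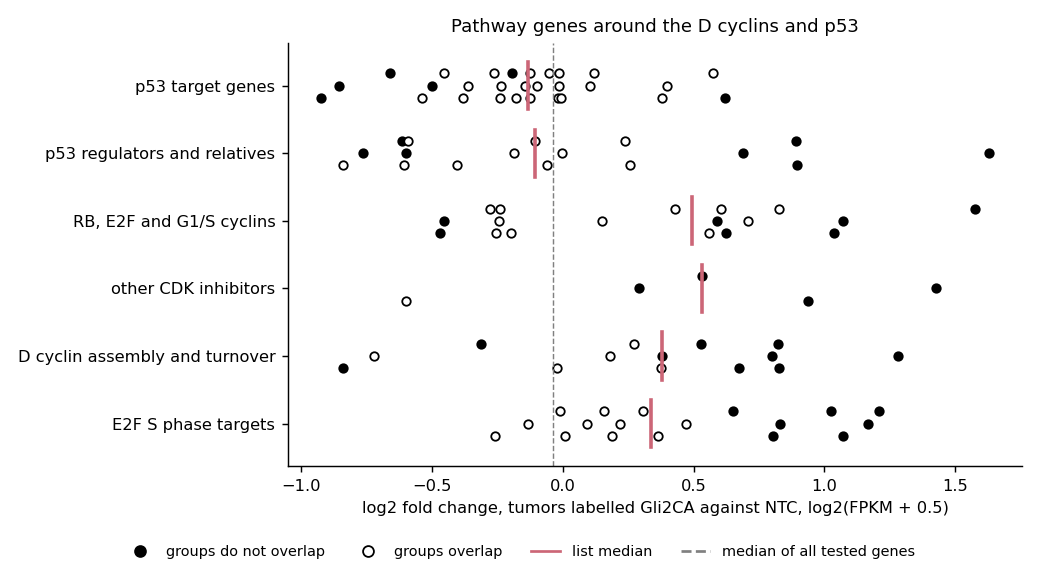
Log2 fold change (horizontal axis, on the log2(FPKM + 0.5) scale; positive is higher in the tumors labelled Gli2CA) of every tested gene of the 6 pathway lists, filled where the groups do not overlap, with the list median in red and the median of all tested genes, -0.04, dashed. The medians run from -0.13 for p53 targets to 0.53 for the other CDK inhibitors, and no point passed the threshold without rescaling.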

How the data were processed

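RNA from 6 whole tumors was poly-A selected, fragmented and made into libraries with random hexamer priming, per the labels' protocols. The authors deposited 1 table of FPKM per gene and sample; the aligner, counter, build and annotation they used, and whether they counted by strand, were not given in the sources used here. Columns were matched to samples by name; sample titles gave group and replicate. Part of the genotype of the line, shared by both groups, is not reported here.

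Gene identifiers were looked up in GENCODE M21 (GRCm38) for symbols and models, with a model for 54495 of 54532 genes. FPKM multiplied by mean transcript length gave whole fragments, within 0.1, for at least 97.0% of low values. Every 2 libraries differed beyond counting noise (mean chi-square per gene at least 52.4, where about 1 is noise).

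The test was limma 3.58.1 in R 4.3.3 (eBayes with a variance trend) on log2(FPKM + 0.5), for genes averaging 0.5 FPKM or more, two-sided, with Benjamini-Hochberg adjustment over all tested genes and a threshold of 0.05; the pseudocount understates changes of low genes. It was tested on simulated data. Python 3.11.15 and matplotlib 3.10.9 prepared tables and plots.

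Named genes are the 10 members, Gli2, the 4 genes with the smallest p in each list and the 3 most like the member with the smallest p; marker genes, Mtap and genes overlapping a member are named beside these. The members and lists were chosen with earlier results of these data known. Alternatives were other pseudocounts, filters, scalings and variance settings, sample weights, a replicate block, limma-voom, removal of the gene length trend and leaving out each library.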

Additional observations from a re-analysis of the deposited data

How the results depend on the processing

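Of 190 member estimates under 19 alternatives, 179 kept their sign and side of the threshold, 9 came to pass it and 2 turned sign. The filters, the variance settings and the replicate block could not change an estimate, only its p, so their signs were fixed in advance. The count of called genes, 55, was 145 with a filter at a mean FPKM of 1, 3 with no filter, 36 with quantile normalization, 25 with limma-voom, 4 with the gene length trend removed and 101 with robust eBayes, and 4 to 97 over the fits without 1 library. Rescaling protein-coding genes gave 736, sample weights gave 1588, and adding the replicate block gave 1928. Of the 55, 42 were higher; of the 736, 106; of the 1588, 704; of the 1928, 901; of the 145, 76; and of the 101, 59. Of the 10 members, the rescaling called 2 (Ccnd3 and Cdkn2a), beside 736 of 13336 tested genes. The weights called 5 (those, Ccnd2, Cdkn2b and Mdm2), beside 1588 of 15820 tested genes. The block called 2 (Ccnd3 and Cdkn2a), beside 1928 of 15820 tested genes. The other 16 alternatives called 0. The rescaling moved the median of all genes from -0.04 to -0.29, and the Cdkn2a estimate from -1.23 to -1.42. Pairing by replicate number was not clear: deviations of same-numbered tumors correlated at 0.35, 0.22 and 0.02. For numbers 1 and 2 both tumors correlated best with their own number, while for number 3 neither did. The adjusted p of Cdkn2a ran from 0.0163 to 0.233. The Ccnd1 estimate ran from -0.71 to 0.35 over the fits without 1 library and was 0.15 with sample weights; the cause of these differences was not tested. The 4 ratios kept their sign in every setting run, among them 5 scalings chosen after seeing the data. Of these scalings, median-ratio, the rescaling of protein-coding genes and that of limma-voom apply 1 factor per library. Such a factor nearly cancels in a ratio, so these settings could hardly turn its sign. Fragments behind a member ran from 177 to 14618 per tumor. How much of the spread within a group comes from counting and how much from the tumors was not tested.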
